A study of Mus musculus with 6 samples.

Results

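The genes of the MHC class II pathway and their transactivator Ciita were followed in activated CD4 T cell cultures with and without Foxo1. The group holds 10 genes, picked by symbol from the 13564 genes of the deposited normalized table: the classical chains H2-Aa, H2-Ab1 and H2-Eb1, the invariant chain Cd74, the H2-DM chains H2-DMa, H2-DMb1 and H2-DMb2, the H2-DO chains H2-Oa and H2-Ob, and Ciita. Foxo1TKO mice carry floxed Foxo1 alleles (fl/fl) and a Cre transgene driven by CD4, which deletes Foxo1 in thymocytes at the stage when they bear both CD4 and CD8, so that CD8 T cells lose it as well. Foxo1Ctrl mice are Foxo1 fl/fl without Cre, and all mice were on the C57BL/6J strain. The mice were young adults by the study's description. Naive CD4 T cells isolated by sorting lymph node cells were activated over 4 days by an anti-CD3 antibody at 0.1 µg per ml, held by 250000 splenocytes of CD3eKO mice, in which T cells are missing. The splenocytes were Foxo1-sufficient in both groups. There were 3 libraries of each genotype, and it is not stated whether they came from separate mice or whether the splenocytes were removed before RNA was taken, so p-values measure the spread between these libraries, which may be technical.

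Class II molecules display peptides from endocytosed proteins to CD4 T cells. The invariant chain Cd74 guides newly made class II chains to endosomes, where H2-DM exchanges its remnant for peptide and H2-DO, found mainly in B cells and some dendritic cells, restrains H2-DM. Transcription of these genes depends on factors bound to the X and Y boxes of their promoters, which recruit Ciita, and it is strongest in B cells, dendritic cells and macrophages. Resting mouse T cells are not regarded as class II-expressing cells.

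Promoters are shown for the genes of the class II region because shared X and Y boxes define this family. RefSeq promoter entries (GRCm38.p6, 250 bases before to 50 after a start) were found for 7 of the 10 genes, and none for H2-Ab1, Cd74 and Ciita. The 7 genes had 8 entries. The letters ATTGG (the Y box core, read on both strands) lay in an entry of each of the 7 genes and in 7 of the 8 entries. They also lie in 37.4% of the 32851 promoters. A longer form, TGATTGG, which contains ATTGG, lay in 6 of the 7 genes (6 of 8 entries) and in 7.82% of all promoters. The X box form AAC, 2 free bases and ATGATG lay in 4 of the 7 genes (4 of 8 entries) and in 0.137% of all promoters. Both of these forms were chosen after the promoters had been read. Another X box core, searched as C, 2 free bases, AG, 2 free bases, AC, 1 free base and GATG, lay in H2-DMb1 alone and in 0.237% of all promoters, and overlaps the first X box form there. The FOXO site GTAAACA lay in none of the 7 and in 3.65% of all promoters. In the stretches of 67 bases below, written 5′ to 3′ on the gene's strand, capitals mark TGATTGG and, where present, the X box form with its free bases.
H2-Oa, chr17:34092284-34092350, plus strand: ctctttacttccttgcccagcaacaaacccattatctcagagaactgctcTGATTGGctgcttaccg
H2-DMb2, chr17:34145107-34145173, plus strand: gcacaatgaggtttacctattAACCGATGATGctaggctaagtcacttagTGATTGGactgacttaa
H2-DMb1, chr17:34153078-34153144, plus strand: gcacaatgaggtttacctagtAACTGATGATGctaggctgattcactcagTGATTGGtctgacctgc
H2-Ob, chr17:34238796-34238862, plus strand: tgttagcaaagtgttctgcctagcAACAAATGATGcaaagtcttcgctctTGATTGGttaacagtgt
H2-Aa, chr17:34287857-34287923, minus strand: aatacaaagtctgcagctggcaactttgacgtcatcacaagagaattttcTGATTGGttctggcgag
H2-Eb1, chr17:34305756-34305822, plus strand: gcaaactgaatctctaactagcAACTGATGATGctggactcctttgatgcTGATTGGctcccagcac

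The capitals of TGATTGG begin between 92 and 45 bases before the RefSeq start. In the 4 promoters that match both capitalized forms, 15 (H2-Ob), 17 (H2-Eb1) or 18 bases (H2-DMb1 and H2-DMb2) separate them. The windows of H2-DMb1 and H2-DMb2 are identical at 58 of 67 positions (86.6%), whereas the other pairs are identical at 26.9% to 43.3%. Both H2-DMb windows lie inside the longer gene spans of GENCODE M21, which start further upstream. A match of letters is a description and does not show that a factor was bound. A promoter without a match, such as that of H2-Aa or H2-Oa for the X box form, may still hold a box of other letters.

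The libraries held 14783890 to 19675447 expected counts. In the check of the genotypes, Foxo1 had 85.4, 46.5 and 114.8 TMM-normalized counts in Foxo1TKO replicates 1 to 3 and 1529, 2285 and 1598 in Foxo1Ctrl replicates 1 to 3. The T cell label was checked with Trac, a T cell receptor constant gene, which had 30405 ± 3323 and 25112 ± 2631 normalized counts (Foxo1TKO and Foxo1Ctrl, mean ± SD, n = 3 each), and with Cd3e, which the added splenocytes lack and which had 8010 to 11180 and 7457 to 9413. Foxo1Ctrl replicate 2 and Foxo1TKO replicate 1 stood apart from the other libraries of their genotype. Their chi-square per gene against those ran from 91.6 to 95.03 and from 52.2 to 86.6, compared with 14.01 and 16.97 between the remaining pairs.

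Of the 10 genes, 5 were lower in Foxo1TKO cultures (H2-Aa, H2-Ab1, H2-Eb1, H2-DMb2 and H2-Ob), 1 was higher (Cd74), and 4 were not called (H2-DMa, H2-DMb1, H2-Oa and Ciita). A gene was called when the adjusted p of edgeR's quasi-likelihood test was under 0.05 and the fold change over 1.5. All 10 genes passed the filter of at least 10 counts in at least 3 libraries. Of the 13691 genes that passed it, 11.8% were called lower and 11.1% higher. The 3 Foxo1TKO libraries lay below the 3 Foxo1Ctrl libraries for the same 5 genes, and above them for Cd74 alone, whereas 21.2% and 21.5% of all genes tested were separated in these directions (42.7% in either). The median log2 fold change of the 10 genes was −0.54, and that of all genes tested was 0.01. Without the 2 libraries that stood apart, 5 genes were again called lower and 1 higher, beside 32.4% of all genes called in either direction, compared with 23.0% with all libraries. In RNA from a mixed culture, fewer cells of a type and less RNA per cell cannot be told apart.

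**Figure D1:**
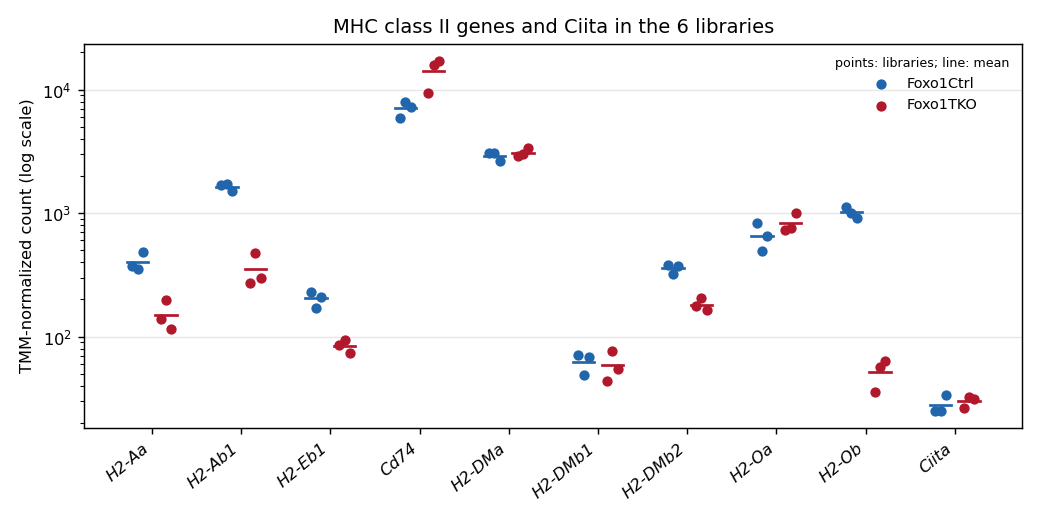
TMM-normalized counts on a log scale for the 10 genes in each Foxo1Ctrl (blue) and Foxo1TKO (red) library, with a line at the mean of each genotype (n = 3). The genotypes do not overlap for H2-Aa, H2-Ab1, H2-Eb1, H2-DMb2 and H2-Ob, which were lower in Foxo1TKO, and for Cd74, which was higher.

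Of the classical chains, H2-Aa and H2-Ab1 encode the α and β chains of I-A, and H2-Eb1 encodes the β chain of I-E. Only RNA was measured, so these values do not show whether either molecule was present at the cell surface. H2-Ab1 (ENSMUSG00000073421, chromosome 17, 34257689 to 34269419 on GRCm38) had 273.0, 479.1 and 300.5 normalized counts in Foxo1TKO replicates 1 to 3 and 1673, 1725 and 1512 in Foxo1Ctrl replicates 1 to 3. The highest Foxo1TKO library thus lay well below the lowest Foxo1Ctrl library. The means were 351 ± 112 and 1637 ± 111, and the log2 fold change was −2.22 (standard error 0.24, edgeR adjusted p = 0.000668), or 4.65-fold lower. H2-Aa (ENSMUSG00000036594, 34282744 to 34287823, minus strand) had 137.8, 197.4 and 115.9 counts in Foxo1TKO and 374.4, 352.2 and 485.4 in Foxo1Ctrl libraries. Again no library overlapped with the other genotype, and the log2 fold change was −1.42 (standard error 0.26, edgeR adjusted p = 0.00640). H2-Eb1 (ENSMUSG00000060586, 34305867 to 34316674), whose promoter matches both capitalized forms, had 86.2, 93.9 and 73.0 counts in Foxo1TKO and 231.3, 170.4 and 209.3 in Foxo1Ctrl libraries. Its log2 fold change was −1.26 (standard error 0.23, edgeR adjusted p = 0.00702). The TPM of H2-Ab1 was 1.90, 2.25 and 2.39 times that of H2-Aa in Foxo1TKO and 4.26, 4.61 and 2.95 times in Foxo1Ctrl libraries, so that these ratios did not overlap. None of these genes shares exons or 75-base stretches of transcript with another gene of the annotation.

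Cd74 (ENSMUSG00000024610, chromosome 18, 60803848 to 60812652) is both the chaperone of class II chains and a receptor subunit for the cytokine MIF. It was the most abundant of the genes and moved the other way. Foxo1TKO libraries had 9386, 15770 and 16900 normalized counts and Foxo1Ctrl libraries 5929, 7970 and 7206. The lowest value of Foxo1TKO, in replicate 1, still lay above the highest of Foxo1Ctrl, and the log2 fold change was 0.99 (standard error 0.24, edgeR adjusted p = 0.0211), or 1.99-fold. This call did not hold in every fit with 1 library left out. Without Foxo1Ctrl replicate 1 the log2 fold change was 0.86 (edgeR adjusted p = 0.0913), and without Foxo1Ctrl replicate 3 it was 1.00 (0.0679). Without Foxo1TKO replicate 2 it was 0.91 (0.0872) and without Foxo1TKO replicate 3 it was 0.85 (0.0723). In these fits 12% to 16.3% of all genes were called, compared with 23.0% with all libraries. Its TPM, a unit per transcript length, exceeded the summed TPM of the classical chains 18.2, 19.8 and 33.1 times in Foxo1TKO libraries, compared with 2.53, 3.40 and 3.19 times in Foxo1Ctrl libraries.

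The H2-DM chains, which form the peptide exchange factor, did not move together. H2-DMa (ENSMUSG00000037649, 34119541 to 34139101), the α chain, had 2900, 2992 and 3358 normalized counts in Foxo1TKO and 3059, 3043 and 2634 in Foxo1Ctrl libraries. These ranges overlapped, and the log2 fold change was 0.08, with a 95% interval from −0.24 to 0.41 (edgeR adjusted p = 0.719). Its exons overlap those of Brd2 on the other strand, which was not called either (log2 fold change −0.35). The β chain H2-DMb2 (ENSMUSG00000037548, 34143307 to 34151555) had 177.5, 203.6 and 163.1 counts in Foxo1TKO and 381.5, 322.5 and 375.0 in Foxo1Ctrl libraries. All 3 Foxo1TKO values were below all Foxo1Ctrl values (log2 fold change −0.98, standard error 0.19, edgeR adjusted p = 0.00855). The second β chain, H2-DMb1 (ENSMUSG00000079547, 34153072 to 34160230), had 44.0, 76.3 and 54.7 against 70.4, 49.2 and 68.8 counts. For this gene the libraries overlapped (log2 fold change −0.10, 95% interval −0.84 to 0.63, edgeR adjusted p = 0.845). The difference between the β chains is uncertain, since 15.8% of the 75-base windows of H2-DMb1 transcripts also occur in H2-DMb2 and RSEM split reads between them, as their fractional counts in 6 of 6 libraries show. The ratio of H2-DMb2 to H2-DMb1 in TPM also overlapped between genotypes, at 3.77, 1.90 and 2.71 in Foxo1TKO and 4.11, 4.10 and 3.67 in Foxo1Ctrl libraries.

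The H2-DO chains, which form the brake on H2-DM, moved apart. H2-Ob (ENSMUSG00000041538, 34238903 to 34254414), the β chain, had 35.5, 57.0 and 63.3 normalized counts in Foxo1TKO and 1114, 1010 and 916.6 in Foxo1Ctrl libraries. Every Foxo1TKO library was far below every Foxo1Ctrl library, and the means were 51.9 ± 14.6 and 1013 ± 98.6. The log2 fold change was −4.27 (standard error 0.26, edgeR adjusted p = 7.5e-05), a fitted fold of 19.2, beside −4.45 (standard error 0.36) for the deleted gene Foxo1. H2-Oa (ENSMUSG00000024334, 34092340 to 34095234), the α chain, had 729.4, 763.3 and 998.1 counts in Foxo1TKO and 827.5, 492.9 and 651.1 in Foxo1Ctrl libraries. These overlapped, and the log2 fold change was 0.34 (95% interval −0.20 to 0.87, edgeR adjusted p = 0.336). In TPM, H2-Oa was 1.19, 0.91 and 1.14 times H2-Ob in Foxo1Ctrl libraries, and 48.6, 24.1 and 21.1 times H2-Ob in Foxo1TKO libraries. The transcript of BC051537 on the other strand matches 11.8% of the 75-base windows of H2-Oa, but it had only 9.15 to 24.2 normalized counts.

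Ciita (ENSMUSG00000022504, chromosome 16, 10480059 to 10528418), the coactivator on which class II transcription depends, was scarcely detected in either genotype. It had 26.2, 32.5 and 31.1 normalized counts in Foxo1TKO and 25.0, 25.2 and 33.9 in Foxo1Ctrl libraries. The libraries overlapped, the log2 fold change was 0.09 (standard error 0.32, edgeR adjusted p = 0.875), and the 95% interval from −0.65 to 0.83 leaves room for a change of either sign, since each library held only 21 to 37 reads of the gene.

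Compared per transcript length, the order of the genes changed at several places. In Foxo1Ctrl libraries Cd74 (437 ± 42.2 TPM) was followed by H2-DMa (193 ± 19.1), H2-Ab1 (103 ± 8.68) and then H2-Oa (45.7 ± 15.2). H2-Ob, H2-Aa, H2-DMb2 and H2-Eb1 came next, with each neighbour from H2-Oa to H2-Eb1 overlapping the one after it, above H2-DMb1 (4.72 ± 1.05) and Ciita (0.387 ± 0.144). In Foxo1TKO libraries Cd74 (892 ± 198 TPM), H2-DMa (210.5 ± 8.69), H2-Oa (58.2 ± 6.54) and H2-Ab1 (22.6 ± 6.73) led. They were followed by H2-Aa and H2-DMb2, which overlapped, and by H2-Eb1, H2-DMb1 and H2-Ob, which overlapped as well, with Ciita last (0.393 ± 0.0777). Cd74 made up 43.8% to 52.9% of the summed TPM of the 10 genes in Foxo1Ctrl and 67.1% to 75.7% in Foxo1TKO libraries. Without Cd74 the sum was 387 to 508 TPM in Foxo1Ctrl and 322 to 326 TPM in Foxo1TKO libraries.

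**Figure D2:**
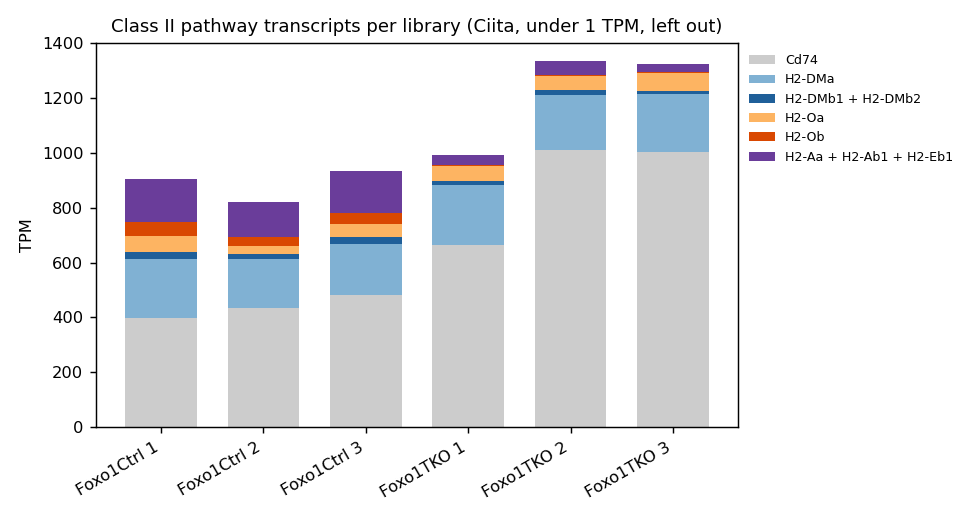
Stacked TPM of Cd74, H2-DMa, the H2-DM β chains, H2-Oa, H2-Ob and the classical chains in each of the 6 libraries. Cd74 takes 67.1% to 75.7% of the 10 genes' TPM in Foxo1TKO and 43.8% to 52.9% in Foxo1Ctrl libraries, and the H2-Ob segment (1.16 to 3.10 TPM) is barely visible in Foxo1TKO.

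Whether the genes changed by unequal amounts was tested on their TPM relative to H2-Ab1 in the same library. All 9 ratios were separated between the genotypes, and each had an exact two-sided permutation p of 0.1, the smallest that 3 against 3 libraries allow (0.1 after Benjamini-Hochberg adjustment over the 9). Relative to H2-Ab1, H2-Ob was lower in Foxo1TKO libraries by a mean log2 difference of −2.13. The other classical chains were higher by 0.83 (H2-Aa) and 0.99 (H2-Eb1), the H2-DM chains by 1.29 (H2-DMb2), 1.85 (H2-DMb1) and 2.35 (H2-DMa), H2-Oa by 2.63, Cd74 by 3.23 and Ciita, with only 21 to 37 reads per library, by 2.29. Those ratios measure unequal change and do not show that any one gene stayed constant. H2-Ab1 was itself lower in Foxo1TKO libraries without overlap (log2 fold change −2.22). The ratio of an unchanged gene would therefore tend to be separated too, as for H2-DMa, which was not called (log2 fold change 0.08). The separation of all 9 is thus largely set by the reference, and its share over all genes was not computed. In the distance between profiles over the 6 libraries (root mean square of the centred log2 values), H2-Eb1 and H2-DMb2 were the closest pair at 0.15 and Cd74 and H2-Ob the farthest at 2.63.

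Of the class II promoter-binding factors (the RFX, NF-Y and CREB proteins that hold Ciita at the X and Y boxes), 8 of 8 were tested and 1 was called. Over all genes tested, 23.0% were called in either direction. Rfx5, the subunit of RFX that binds DNA, was higher in Foxo1TKO, with 451.3, 286.9 and 408.9 against 132.3, 258.4 and 199.6 normalized counts (log2 fold change 0.95, standard error 0.29, edgeR adjusted p = 0.0490). Its other subunits had log2 fold changes of 0.16 (Rfxap) and −0.01 (Rfxank), and the NF-Y subunits of −0.29 (Nfya), 0.40 (Nfyb) and 0.25 (Nfyc), none of them called. Creb1 and Atf1 were not called either, at −0.31 and 0.14. The median of the list was 0.15.

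Among the regulators of Ciita, 12 genes that convey interferon γ signals to its promoters or bind them, 11 were tested, of which 3 were called lower and 1 higher (median log2 fold change −0.48). The shares over all genes tested were 11.8% lower and 11.1% higher. Ifngr1, the ligand-binding chain of the interferon γ receptor, had 3865 to 4590 normalized counts in Foxo1TKO and 43490 to 53590 in Foxo1Ctrl libraries (log2 fold change −3.49, standard error 0.17, edgeR adjusted p = 3.42e-05). The receptor's second chain Ifngr2 and the kinases Jak1 and Jak2 were not called, with 0.30, −0.41 and −0.63. Irf8, a transcription factor of B and myeloid cells that activated T cells can also express, was higher, at 6086 to 8698 against 789.1 to 1916 (log2 fold change 2.45, standard error 0.33, edgeR adjusted p = 0.00172). Its relative Irf4 was lower (−1.13), and so was Prdm1, a repressor of Ciita in plasma cells, with 0.88 to 5.92 against 56.2 to 82.3 normalized counts. Irf2 passed the test (edgeR adjusted p = 0.0364) but not the fold change required (−0.48), and Irf1, Sp1 and Usf1 had −0.34, −0.48 and −0.62 and were not called. Spi1, a factor of myeloid and B cells, was too low to be tested (1.14 to 9.54 normalized counts in any library).

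Of 9 genes of class II antigen processing and turnover found by symbol, 8 were tested, with 2 lower, 1 higher and a median of −0.07. These counts, and those of the costimulators below, stand beside 11.8% lower and 11.1% higher over all genes tested. Lgmn, an endosomal protease, was lower in Foxo1TKO at 60.9, 70.2 and 91.2 against 1025, 608.4 and 781.9 normalized counts (log2 fold change −3.43, standard error 0.27, edgeR adjusted p = 0.000191). Ctsl, a cathepsin that cleaves the invariant chain in thymic epithelium, was also lower (−1.40, standard error 0.29). Ctss, the cathepsin that does so in B cells and dendritic cells, had 4080 to 4956 against 4708 to 5063 counts and was not called (−0.06), nor were Ctsb (−0.08), Sppl2a (0.15), Ifi30 (0.46) and March1 (−0.19). Cd83, which protects class II and Cd86 from degradation by March1, was higher, at 5395, 7657 and 7484 against 378.0, 423.1 and 530.0 (log2 fold change 3.94, standard error 0.22, edgeR adjusted p = 4.88e-05). The ubiquitin ligase gene Marchf8 was not tested, with 9.66 to 41.2 against 1.14 to 8.72 counts. Of 4 costimulators of presenting cells, Cd86 was higher (log2 fold change 1.03, standard error 0.22), Cd80 lower (−1.83, standard error 0.51, at 6.76 to 25.4 against 41.7 to 82.3 counts), and Cd40 (−0.99) and Icosl (−1.10) were not called. The median of these 4 was −1.05.

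**Figure D3:**
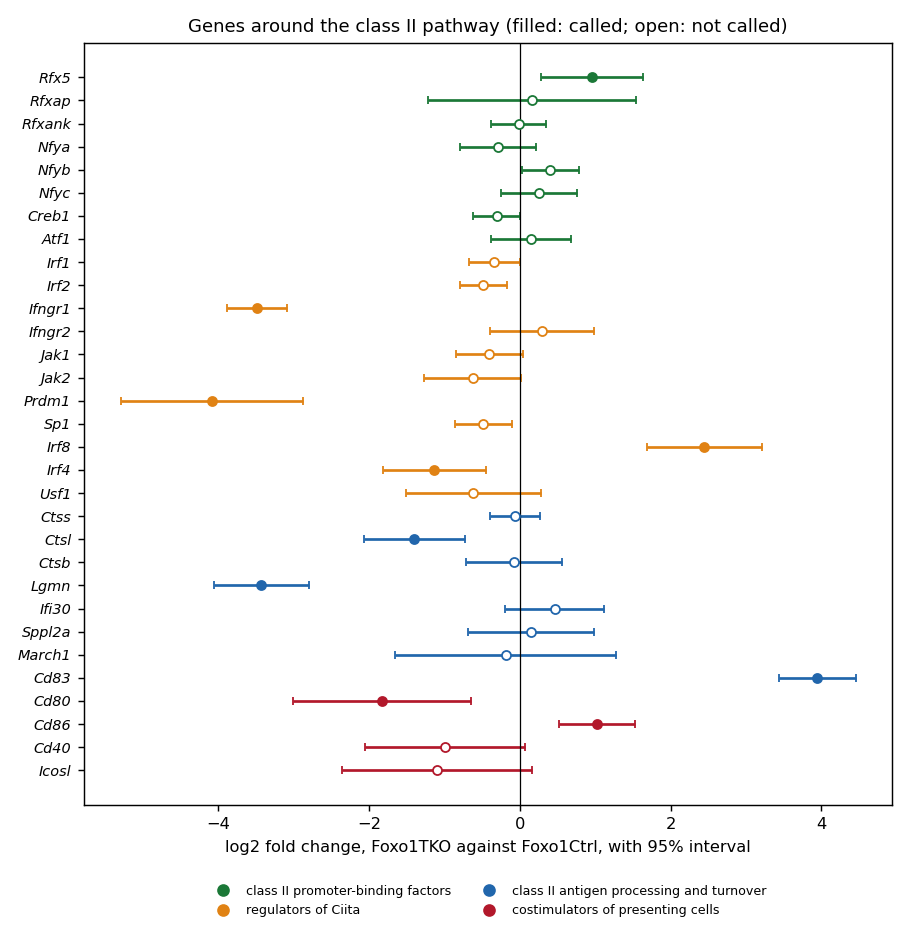
Log2 fold changes of Foxo1TKO against Foxo1Ctrl with 95% intervals for the tested genes of 4 lists around the class II pathway, marked by colour; filled points were called. The promoter-binding factors lie between −0.31 and 0.95, whereas Ifngr1 (−3.49), Lgmn (−3.43), Irf8 (2.45) and Cd83 (3.94) lie far from 0.

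The 8 of these genes on chromosome 17 bound a region from 34092340 to 34316674 that holds 20 annotated genes, 15 of them tested. The other 7 tested genes include those of MHC class I peptide supply, which interferon also induces: Psmb8, Psmb9, Tap1 and Tap2. None of these was called, with log2 fold changes of −0.002, −0.05, −0.20 and −0.40. Tap2 varied strongly within each genotype (1042 to 4238 normalized counts in Foxo1TKO and 1010 to 4342 in Foxo1Ctrl libraries). The one other gene called was CR974462.4, an antisense RNA inside the span of H2-DMa (34127920 to 34129410), which was lower in Foxo1TKO at 54.9, 58.8 and 47.2 against 203.9, 263.0 and 198.6 (log2 fold change −2.03, standard error 0.24, edgeR adjusted p = 0.00106). H2-Ob, H2-Ab1, H2-Aa and H2-Eb1, all lower, are the last 4 tested genes of the region, and the genes tested before them, apart from H2-DMb2 and CR974462.4, were not called. The region ends at H2-Eb1 by definition, and the genes beyond that end were not examined by position.

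**Figure D4:**
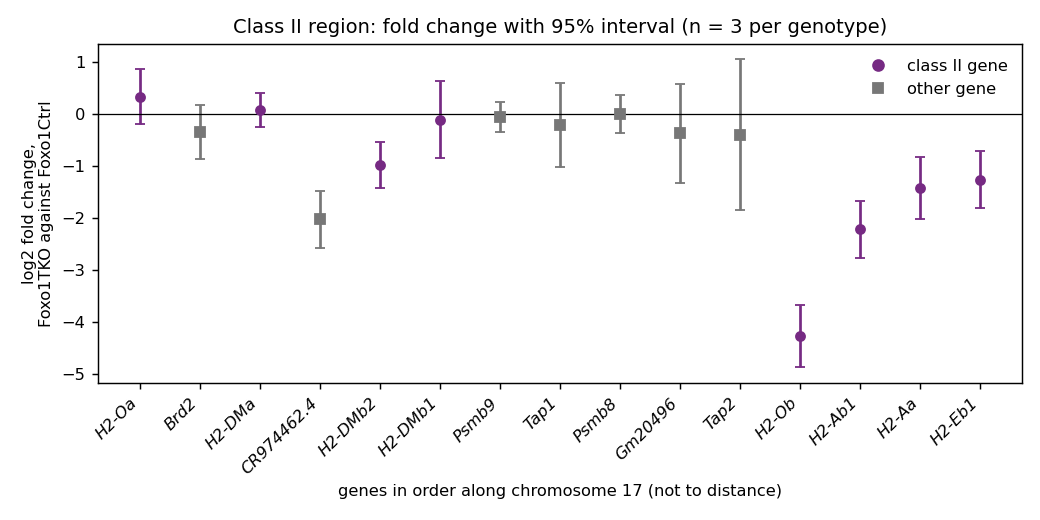
Log2 fold changes with 95% intervals (n = 3 libraries per genotype) for the 15 tested genes of the class II region in their order along chromosome 17, class II genes as circles and others as squares. From H2-Ob to H2-Eb1 the intervals lie below 0, and those of Psmb9, Tap1, Psmb8 and Tap2 span 0.

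B cells, which express class II genes strongly, could be among the added splenocytes, and their markers differed between the genotypes in both directions. Of 17 B cell markers, 14 were tested, 6 lower and 2 higher (median log2 fold change −1.33), and none was at 0. Over all genes tested, 11.8% were lower and 11.1% higher. Cd79a, Cd79b, Ms4a1, Cd22, Bank1 and Ighm were lower, for example Ms4a1 (CD20) at 16.1, 31.6 and 24.7 against 110.9, 120.1 and 112.4 normalized counts (−2.20). Cd72 (4.15) and Pou2af1 (1.11) were higher, and Ighd was not called (0.17). The summed TPM of the list was 880 to 948 in Foxo1TKO and 567 to 1101 in Foxo1Ctrl libraries. Against the summed TPM of Cd79a, Cd79b and Ms4a1 (6.34 to 8.16 in Foxo1TKO and 21.1 to 25.9 in Foxo1Ctrl), a reference picked after the data were seen from the lowered markers of the list and used without a test, the genotypes lay closer together for the classical chains. H2-Aa was 1.61, 1.65 and 1.14 times that sum in Foxo1TKO and 1.11, 0.98 and 1.32 times in Foxo1Ctrl libraries, which overlapped. The ratio of H2-Eb1 also overlapped, at 0.727 to 1.06 against 0.533 to 0.735, whereas that of H2-Ab1 was lower in Foxo1TKO without overlap, at 2.71 to 3.71 against 3.90 to 4.72. H2-Ob remained lower by this measure, at 0.18 to 0.47 against 1.55 to 2.11, whereas Cd74, at 104.7 to 151 against 16.6 to 20.6, was higher. These ratios depend on the choice of markers. The divisor was itself lower in Foxo1TKO (mean log2 difference −1.75), which raises every ratio there. A gene lowered in Foxo1TKO is therefore brought closer by this choice. The summed TPM of the whole list overlapped between the genotypes, but Cd72 and Ighm weigh heavily in it and went opposite ways. Cd72 had 536 to 693 TPM in Foxo1TKO and 28.4 to 40.2 in Foxo1Ctrl libraries, and Ighm 211 to 309 and 497 to 1016. The part of B cells in these results was not tested.

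**Figure D5:**
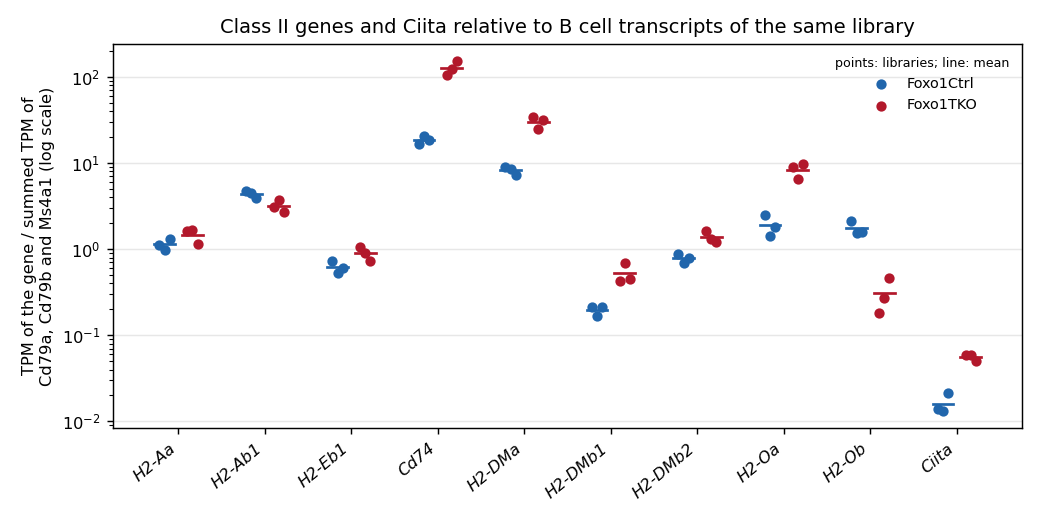
TPM of each of the 10 genes divided by the summed TPM of Cd79a, Cd79b and Ms4a1 in the same library, on a log scale, for Foxo1Ctrl (blue) and Foxo1TKO (red), with a line at each mean (n = 3). By this ratio H2-Aa and H2-Eb1 overlap between the genotypes, H2-Ob and H2-Ab1 are lower in Foxo1TKO, and the other 6 genes are higher. The divisor, picked from lowered B cell markers, was itself lower in Foxo1TKO (mean log2 difference −1.75), which raises every ratio there. H2-DMb2, called lower by its counts, is therefore higher here.

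Defining macrophage markers were at or near 0. C1qa and C1qc had no count in any library, Fcgr1 had at most 3, and only 4 of 14 markers could be tested, with Ccr2 (log2 fold change −3.14) and Fcgr3 (0 to 7.02 against 351.7 to 677.0 normalized counts) lower and Cd68 (0.74) and Itgam (−1.11) not called. The summed TPM of the list was 6.93 to 7.51 in Foxo1TKO and 36.4 to 49.5 in Foxo1Ctrl libraries. Most of that difference lay in Fcgr3 (0 to 0.41 against 20.53 to 32.73 TPM) and Ccr2 (0.91 to 2.50 against 12.05 to 13.97 TPM). Of 12 dendritic cell markers, 5 were tested and 1 was called, Itgax (CD11c), at 349.9 to 485.1 normalized counts in Foxo1TKO and 0 to 1.19 in Foxo1Ctrl libraries. Cst3, Zbtb46 and Naaa were not called (−0.13, −0.48 and −0.52), Cd209a had no count, Flt3 had at most 5.72 normalized counts, and the sums overlapped (255 to 301 against 258 to 334 TPM). Cst3 alone made up most of these dendritic sums, at 240 to 287 against 249 to 329 TPM. Among 8 plasma cell markers, 5 were tested and 2 were lower, Jchain (−1.47) and Mzb1 (−2.04), whereas Xbp1 (−0.01) and Ighg1 (−1.45) were not called, and the sum was 114 to 161 against 183 to 248 TPM. The counts of called macrophage, dendritic and plasma cell markers stand beside 23.0% of all genes tested called in either direction. The part of these cells in the class II results was not tested.

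The remaining marker lists are likewise given beside the 23.0% of all genes tested that were called in either direction. Of 14 T cell markers, all tested, Cd28 (−1.43) and Trbc2 (−0.67) were lower and none higher, while Lck (0.19), Cd3g (−0.35), Trac (0.28) and Cd3d (−0.54) were not called (sum 12623 to 14753 against 13915 to 16256 TPM). Among 8 NK cell markers, 4 were tested and Eomes, also a T cell factor, was higher (2.26), whereas Gzma (−0.29), Klrb1c (−0.68) and Klre1 (0.38) were not called and Klra8 was at 0 (sum 39.8 to 96.6 against 32.7 to 77.9 TPM). None of the 3 erythroid markers tested of 6 was called by edgeR, Hba-a2 (−0.27), Hbb-bs (−0.53) and Hba-a1 (−0.04), Hbb-bt was not tested, and the sum was 35.4 to 65.0 against 40.2 to 69.6 TPM.

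Of the 9227 other genes that averaged 100 or more normalized counts, those whose profile over the 6 libraries lay nearest to the mean of the 10 genes were Rbm33, Osbpl9, Fam118a, Tiparp and Irf9, at root mean square distances of 0.05 to 0.09. That mean joins genes with log2 fold changes from −4.27 (H2-Ob) to 0.99 (Cd74). Irf9, a transcription factor of the interferon response, was also among the 5 nearest to H2-DMb2, at 0.08. H2-DMb2 is itself part of the mean, and its nearest genes were looked at beyond the naming rule. The genes nearest to H2-Ob were Ifi214, Gm4070, Gm33104, Slamf6 and Gm15708, at 0.25 to 0.32. Slamf6, a receptor of T, B and NK cells, had 769 and 10135 normalized counts on average in Foxo1TKO and Foxo1Ctrl libraries, and Ifi214, of the interferon-inducible p200 family, had 187 and 4026. A small distance describes likeness in 6 libraries only.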

How the data were processed

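RNA-seq libraries of 3 Foxo1TKO and 3 Foxo1Ctrl cultures were grouped by their titles. The authors aligned reads with STAR 2.7.6a to GRCm38 and estimated counts per gene with RSEM 1.3.1, which divides a read that maps to several genes. The deposited files hold expected counts without normalization, and the deposited TPM values are scaled by transcript length and library. Whether strand was used in counting is not given in the sources used here. The authors also deposited a normalized signal per gene (counts scaled by DESeq2 size factors and effective length), used here to find the 10 genes and as an alternative.

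Expected counts were rounded, and 13691 of 55487 genes, those reaching 10 counts in 3 or more libraries, were compared by edgeR 4.0.16 in R 4.3.3 (TMM, quasi-likelihood test, prior count 1, genotype as the only term), with Benjamini-Hochberg adjustment over all of them. Standard errors are the log2 fold change over the root of the F statistic. Intervals and errors cover the spread between libraries, which held 14783890 to 19675447 expected counts. Levels of different genes were compared in TPM. A count was taken as fractional when more than 0.005 from a whole number. DESeq2 1.42.0 and limma 3.58.1 served as alternatives, and the edgeR fit was checked on simulated data. Gene spans are from GENCODE M21 and promoters from RefSeq.

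The genes named were the 10 genes, Foxo1, the genes of 4 pathway lists and of the class II region, the 4 most abundant of each marker list, and the 5 genes of nearest profile. Cd3e, Cd22, Cd79a, Cd79b, Ms4a1, Bank1, Cd28, Trbc2, Mzb1 and genes listed at 0 or too low to test were named beyond this rule after their values were seen. The genes, lists and motifs were chosen with earlier results of these data known. Some genes of the lists are not reported here and were left out of their counts. Figures were drawn with matplotlib 3.10.9.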

Additional observations from a re-analysis of the deposited data

How the results depend on the processing

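Under 16 alternatives (DESeq2, limma-voom, other scalings, filters, the normalized signal, an effective length offset, the replicate block and libraries left out), 5 of the 10 genes were called lower in each, H2-Ob at log2 fold changes of −4.42 to −4.05 and H2-Ab1 at −2.50 to −2.02. The median over all genes lay between −0.03 and 0.02 under them. Leaving out 1 library in turn gave 1590 (without Foxo1TKO replicate 2) to 3165 genes called in all, compared with 3144, and 1848 without Foxo1Ctrl replicate 1. It also gave 0 to 1 of the 10 genes higher, 10 to 15 genes of the other lists lower compared with 18, and 4 to 7 higher compared with 8. Without both libraries that stood apart (added after the data were seen), 4144 genes were called, 2392 of them among the 3144 and in the same direction, and 21 genes of the other lists were lower. Cd74 lost its call without Foxo1Ctrl replicate 1 or 3 or Foxo1TKO replicate 2 or 3, and the cause was not tested. Genes not called changed sign in single settings: H2-DMb1 ran from −0.33 to 0.064 (without Foxo1TKO replicate 1) and Ciita from −0.0094 (without Foxo1Ctrl replicate 1) to 0.24 with 1 library left out. With Cd74 as the reference of ratios in place of H2-Ab1, the differences became −2.40 (H2-Aa), −2.24 (H2-Eb1), −0.88 (H2-DMa), −1.39 (H2-DMb1), −1.94 (H2-DMb2), −0.61 (H2-Oa), −0.94 (Ciita) and −5.37 (H2-Ob), and the ratio of H2-Oa overlapped between the genotypes (exact permutation p = 0.2). By construction this reference differs from H2-Ab1 by the 3.23 given for Cd74.

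Whether replicate numbers pair the libraries could not be settled. In the cytometry of such cultures the study paired Foxo1TKO and Foxo1Ctrl cells by experiment, but it names no pairing of the sequenced libraries. The correlations of same-numbered libraries, after removal of genotype means, were 0.43, 0.20 and −0.11. For 2 of the 3 numbers, the best match of the Foxo1TKO library among the Foxo1Ctrl libraries bore the same number. The fit with the replicate number as a block called 3318 genes, 2969 of them among the 3144 and in the same direction, and again 5 of the 10 genes lower and 1 higher. Low depth limits Ciita (21 to 37 reads per library).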
